A study of Homo sapiens with 10 samples.

Results

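The genes IKZF1, TCF7, LEF1 and BCL11B encode transcription factors of the T-cell lineage, and the chromatin around each was read from 6 peak lists of RPMI-8402 cells. The members are all listed regions that lie wholly inside fixed hg19 windows. These were chr7:50330000-50480000 for IKZF1, chr5:133440000-133490000 for TCF7, chr4:108960000-109100000 for LEF1 and chr14:99600000-99750000 for BCL11B. The span chr14:97800000-99600000, which lies downstream of BCL11B, was kept apart. Of the 121294 regions of the 6 lists, 85 lay in the 4 gene windows, with 18 at IKZF1, 11 at TCF7, 48 at LEF1 and 8 at BCL11B, and a further 93 lay in the downstream span. No region crossed an edge of a window. Within a window every listed region was taken, whatever its width or overlaps.

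IKZF1 encodes Ikaros, a zinc-finger factor that lymphoid development depends on and a tumour suppressor of lymphoid leukaemia. TCF7 encodes TCF-1 and LEF1 its close relative, HMG-box factors that act early in the thymus and can partner with beta-catenin. BCL11B encodes a zinc-finger factor of T-lineage commitment, and enhancers far downstream of it are known to be active in T cells and to drive other genes in rearranged T-cell leukaemias. H3K4me3 marks active promoters, and at genes of cell identity it often forms broad domains. H3K27ac marks active promoters and enhancers, and H3K4me1 lies mostly at enhancers and beside promoters. MYC and MYCN are related factors that pair with MAX and bind E-boxes, of which the sequence CACGTG is the classical form.

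RPMI-8402 is an established human line of T-cell acute lymphoblastic leukaemia, and the labels name no treatment. CUT&RUN, in which an antibody tethers a nuclease that frees the DNA next to the target, gave 10 libraries in 4 sets (A to D), 4 of them control IgG. The 6 with a list were MYCN (set A, 895 peaks), H3K4me3 (set B, 13852 regions), MYC (set C, 9498 regions), H3K27ac (set C, 39528), H3K4me1 (set C, 39503) and MYC again (set D, 18018 peaks). Each target other than MYC had a single library, and the headers of both MYC lists name the same signal track, so they may not be independent replicates. The lists give positions only, so depth is unknown, a region is either listed or not, and no comparison below has a replicate test. Intervals are exact 95% binomial (Clopper-Pearson) intervals that cover counting error over regions only.

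All 4 genes held a very wide H3K4me3 domain, but they differed in acetylation and in MYC. With regions joined across gaps of up to 1 kb, the widest domain was 8816 bp at IKZF1, 7704 bp at TCF7, 7248 bp at BCL11B and 6730 bp at LEF1, ranks 5, 12, 22 and 29 of 11978 domains with a median of 1571 bp. LEF1 had both H3K27ac and MYC in its domain, IKZF1 had H3K27ac without MYC, BCL11B had MYC without H3K27ac, and TCF7 had neither. None of the 4 domains held a MYCN peak or H3K4me1, and H3K4me1 overlapped only 14.4% of all H3K4me3 regions and 13.8% of the 29 widest domains. In the gene's direction, taken from the RefSeq strand, every domain lay near the start of its window, and the other regions at IKZF1 and TCF7 lay mostly on the downstream side.

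**Figure D1:**
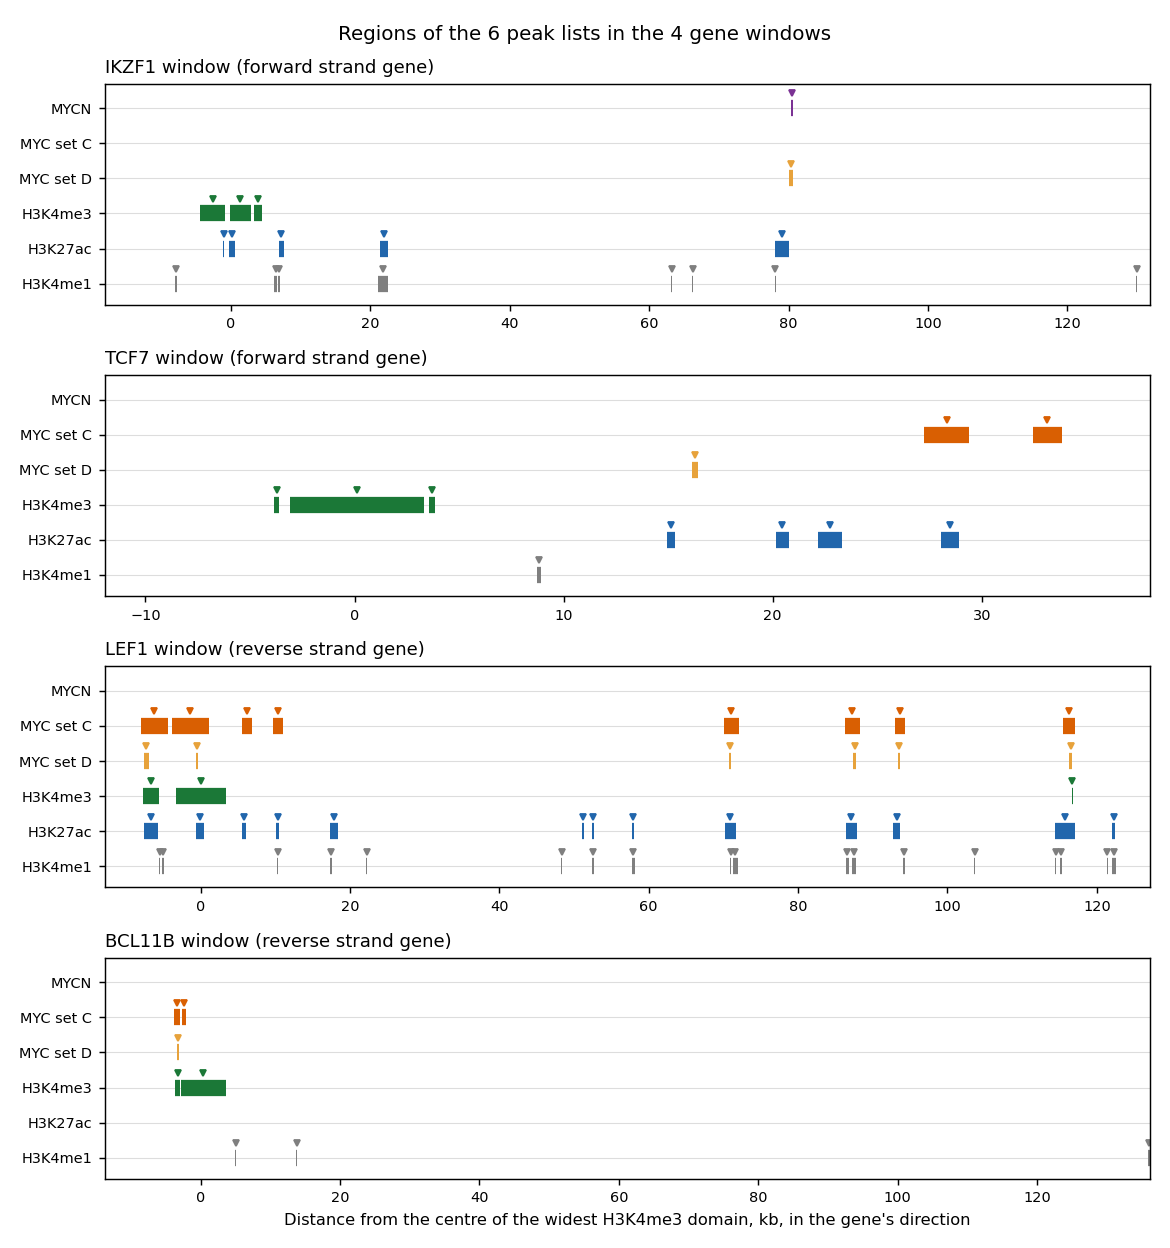
Each panel maps the regions of the 6 lists in a gene window, as bars to scale on the distance in kb from the centre of the widest H3K4me3 domain, turned into the gene's direction; a triangle marks each region's middle. LEF1 carries MYC of both lists at its domain and along the gene, BCL11B only at the upstream edge of its domain, and IKZF1 and TCF7 only outside theirs.

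Reference promoter sequences of the 4 genes are shown because CACGTG is the site MYC is known for and the genes differed in MYC at their promoter mark. They come from RefSeq on GRCh38.p14 and run from 250 bases before to 50 after a listed transcription start. Capitals mark every match to CANNTG, the general E-box, whose match on the other strand falls on the same bases. CACGTG is itself a CANNTG.
IKZF1, chr7:50304466-50304765, + strand: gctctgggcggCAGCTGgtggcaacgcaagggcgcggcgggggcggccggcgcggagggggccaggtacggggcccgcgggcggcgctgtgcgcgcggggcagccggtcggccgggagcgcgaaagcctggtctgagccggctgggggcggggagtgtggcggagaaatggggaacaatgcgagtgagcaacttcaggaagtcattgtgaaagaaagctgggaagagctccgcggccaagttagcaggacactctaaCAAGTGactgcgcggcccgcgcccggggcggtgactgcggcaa
TCF7, chr5:134115363-134115662, + strand: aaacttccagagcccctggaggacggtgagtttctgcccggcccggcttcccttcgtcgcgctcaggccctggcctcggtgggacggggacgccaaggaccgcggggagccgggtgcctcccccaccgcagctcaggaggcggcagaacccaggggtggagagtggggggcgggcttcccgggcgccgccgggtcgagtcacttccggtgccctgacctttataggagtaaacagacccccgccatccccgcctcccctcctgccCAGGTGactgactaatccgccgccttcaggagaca
LEF1, chr4:108166252-108166551, - strand: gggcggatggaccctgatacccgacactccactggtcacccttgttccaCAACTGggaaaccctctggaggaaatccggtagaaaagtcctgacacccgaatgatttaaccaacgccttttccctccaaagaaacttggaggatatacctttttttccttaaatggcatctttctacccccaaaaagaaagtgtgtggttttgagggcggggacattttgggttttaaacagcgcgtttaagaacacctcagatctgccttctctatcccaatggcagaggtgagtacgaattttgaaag
BCL11B, chr14:99272148-99272447, - strand: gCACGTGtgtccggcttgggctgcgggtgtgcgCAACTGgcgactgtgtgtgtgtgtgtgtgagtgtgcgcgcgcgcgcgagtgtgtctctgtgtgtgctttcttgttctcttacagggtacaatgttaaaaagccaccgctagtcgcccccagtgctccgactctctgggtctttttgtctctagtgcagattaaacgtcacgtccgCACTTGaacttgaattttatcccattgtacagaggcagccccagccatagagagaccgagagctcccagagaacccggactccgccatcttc

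Of these, only the BCL11B window held CACGTG, with its first base 249 bases before the start. It also held CAACTG at 217 and CACTTG at 42 bases before the start. The IKZF1 window held CAGCTG at 239 bases before its start, and CAAGTG 7 bases after it. TCF7 held a single CAGGTG, 15 bases after its start, and LEF1 a single CAACTG, 201 bases before its start. The table lists 2 further starts for IKZF1 and 1 for TCF7, and none of those windows held CACGTG. Over all 35116 promoter windows listed there, 7.26% held CACGTG and 68.7% held CANNTG, so that the single CACGTG among the 7 windows of the 4 genes describes these letters only. Another 15 genes were looked up, namely T-lineage factors together with NOTCH1, BCL11A, TCF7L1 and TCF7L2. Of the 15, 12 had a window in the table, and CACGTG was found for 2 of them, GATA3 and TCF12. Those 12 genes had 32 windows. Counted by gene, 2396 of all 27305 genes listed there had CACGTG in a window. The BCL11B start is the outer end of the gene in RefSeq, whereas those shown for IKZF1, TCF7 and LEF1 lie 1261, 7395 and 2631 bases inside it. The sequences are on another build than the peak lists, and their positions were not set against the peaks.

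IKZF1 had no MYC in or next to its H3K4me3 domain, which was the widest of the 4 only with gaps of up to 1 kb joined. Without joining, its widest region of 3585 bp (rank 390 of 13852) was the narrowest of the 4, and with gaps of up to 3 kb joined LEF1 was widest, at 11027 bp. The domain, chr7:50343680-50352495, was made of 3 H3K4me3 regions of 3585, 2995 and 1076 bp. H3K27ac covered 1045 bp of it (11.9%) in regions of 178 and 867 bp. The MYC list of set C had no region in the window, and its nearest to the domain lay 36.7 kb away, outside the window. That of set D had its nearest 22.3 kb away, also outside the window.

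The MYC and MYCN of the IKZF1 window met at a single site, 75.6 kb downstream of the domain. The MYC set D peak chr7:50428067-50428704 (638 bp) enclosed the MYCN peak chr7:50428382-50428662 (281 bp), which was the only MYCN peak of the 4 windows and the span. The MYC peak shared 48 bp with the end of an H3K27ac region of 1957 bp, chr7:50426158-50428114, which was wider than nearly all others of its list (1.56% were at least as wide). The MYCN peak began 267 bp beyond that region and overlapped none of the 3 marks, as did 22 of all 895 MYCN peaks (2.46%). Overlap with MYC of set D was the usual state of MYCN peaks, found for 879 of the 895 (98.2%). This peak lay in MYC of set D and not of set C, like 27.4% of MYCN peaks. At the other end of this H3K27ac region lay an H3K4me1 region of 194 bp.

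Apart from the domain and that site, IKZF1 had a small set of regions with enhancer marks. H3K27ac of 1184 bp at chr7:50369407-50370590 lay over the widest H3K4me1 region of the window, chr7:50369243-50370572 (1330 bp, with 1.03% of the list at least as wide). Next in width among the 8 H3K4me1 regions were chr7:50354284-50354666 (383 bp), which overlapped no other list, and chr7:50340008-50340307 (300 bp), which lay 3.37 kb upstream of the domain. Of the 8, 3 overlapped H3K27ac (37.5%, interval 8.52 to 75.5%), against 50.4% of all H3K4me1 regions. None of the 8 overlapped MYC (interval up to 36.9%). Over the whole list 15.9% did, a value inside that interval, so 0 of 8 cannot be told apart from it. The longest H3K27ac cluster of the gene, with gaps of up to 10 kb joined, was chr7:50346945-50355639 (8695 bp, rank 3495 of 28279), which reached from within the domain to a region of 665 bp beyond it. With gaps of up to 5 and 20 kb joined, the longest was 1957 and 23646 bp.

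TCF7 joined a wide H3K4me3 domain without a listed H3K27ac region to an acetylated stretch further along. Its domain, chr5:133448084-133455787, rested on a region of 6434 bp, which only 0.108% of H3K4me3 regions matched or exceeded, with flanking regions of 245 and 296 bp. No H3K27ac, H3K4me1, MYC or MYCN region overlapped it. The nearest H3K4me1, of 230 bp and the only one of the window, lay 4.85 kb downstream, and the nearest H3K27ac lay 11.1 kb downstream. The nearest MYC was 12.3 kb away in set D and 21.1 kb away in set C, the latter upstream of the window. The nearest MYCN peak was 618 kb away.

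The acetylation of TCF7 formed 1 cluster, chr5:133466891-133480839, with regions joined across gaps of up to 10 kb. It was 13949 bp long, rank 1429 of 28279 clusters. Its 4 H3K27ac regions were 380, 602, 1149 and 870 bp wide. None overlapped the only H3K4me1 region of the window (interval up to 60.2%), against 45.3% of all H3K27ac regions with H3K4me1. The last of the 4 lay inside the MYC set C region chr5:133479167-133481334 (2168 bp, with 5.91% of the list at least as wide), which set D did not list. The other set C region, chr5:133484370-133485759, and the set D peak, chr5:133468052-133468378, overlapped none of the 3 marks. Over the whole lists, 8.10% of set C regions and 10.5% of set D peaks overlapped none. The MYC lists thus named different places at TCF7. In the RefSeq table VDAC1 overlaps TCF7 and SKP1 is the next protein-coding gene downstream. Whether the window reaches SKP1 on hg19 was not examined.

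LEF1 had the most regions of the 4 and carried MYC of both lists at several places along its window. Its domain, chr4:109083821-109090550, was a single region of 6730 bp, and only 0.0722% of all H3K4me3 regions were at least as wide. H3K27ac covered 1091 bp of it (16.2%) and MYC of set C 4448 bp (66.1%). That MYC region, chr4:109086103-109091069, was 4967 bp wide, with 0.316% of the set C list at least as wide. Set D had a peak of 209 bp inside it, chr4:109087564-109087772, narrower than most of its list. The lists came from different callers and different sets, which cannot be told apart in this contrast of widths.

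A second H3K4me3 region of LEF1, chr4:109092806-109094847 (2042 bp), lay 2.25 kb upstream of the domain. It overlapped H3K27ac of 1962 bp, the MYC set C region chr4:109091576-109095171 (3596 bp) and the MYC set D peak chr4:109094077-109094828 (752 bp, the widest set D peak of the window). LEF1-AS1, a long noncoding RNA gene on the opposite strand, overlaps the 5′ end of LEF1 in RefSeq, and the lists do not separate the 2 genes. The remaining H3K4me3 region, of only 180 bp, chr4:108970383-108970562, lay 113 kb away, near the other end of the window. It sat in the widest H3K27ac region of the window, chr4:108970174-108972767 (2594 bp), together with MYC of set C (chr4:108970130-108971716, 1587 bp) and of set D (chr4:108970459-108970876, 418 bp).

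The MYC sites of LEF1 lay in acetylated chromatin, both in and away from H3K4me3. All 8 MYC set C regions (interval 63.1 to 100%) and all 6 set D peaks (interval 54.1 to 100%) of the window overlapped H3K27ac. Of those lists as a whole 78.2% and 70.7% did, values inside these intervals, so overlap with H3K27ac was the usual state of MYC. The counts of the lists are not separate, since they share sites. All 6 set D peaks lay in set C regions, and 6 of the 8 set C regions held a set D peak, beside 45.1% and 82.5% overall. The 3 sites listed in both sets outside H3K4me3 were 66.7 kb (chr4:109015163-109017114, 1952 bp), 83.0 kb (chr4:108998936-109000870, 1935 bp) and 89.6 kb (chr4:108992926-108994240, 1315 bp) from the domain, in the widths and gaps of set C. The set C regions at 2.11 and 6.37 kb were not in set D.

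Of the 13 H3K27ac regions of LEF1, 8 held MYC of at least 1 list (61.5%, interval 31.6 to 86.1%), against 34.6% of all H3K27ac regions. After the region of 2594 bp, the widest were chr4:109092841-109094802 (1962 bp) and chr4:109015471-109017041 (1571 bp), both with MYC of both lists. The 5 without MYC were 366, 277, 268, 214 and 1058 bp wide. H3K4me1 was listed 18 times, and its widest regions were chr4:109015300-109015863 (564 bp), chr4:108964557-108965090 (534 bp) and chr4:108999469-108999930 (462 bp). Joined into clusters, the LEF1 acetylation formed stretches of 26055 bp (chr4:109068748-109094802, rank 344 of 28279) and 22700 bp (chr4:108950068-108972767, rank 495), the second of which began before the window. The first of them held 4 MYC regions of set C and 2 peaks of set D. The longest cluster of LEF1 was 8024 bp with gaps of up to 5 kb joined and 61773 bp with gaps of up to 20 kb.

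BCL11B showed a wide H3K4me3 domain with MYC at its upstream edge and no H3K27ac region listed anywhere in its window. The domain, chr14:99732657-99739904, was made of regions of 6468 and 651 bp. Only 0.101% of H3K4me3 regions were at least as wide as the first. The narrower one was met by MYC of both sets, at chr14:99739253-99740087 (835 bp) in set C and at chr14:99739372-99739595 (224 bp) in set D. Set C also listed chr14:99738436-99738973 (538 bp) within the end of the wider region. These were narrow for their lists, with 84.4%, 89.2% and 99.0% of the regions of the same list at least as wide. The nearest H3K27ac region to the domain lay 109.9 kb away, upstream of the window, and the nearest MYCN peak 2815 kb away. The 3 H3K4me1 regions of the window, of 260, 169 and 221 bp, lay 132, 10.1 and 1.29 kb downstream of the domain and overlapped no other list.

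**Figure D2:**
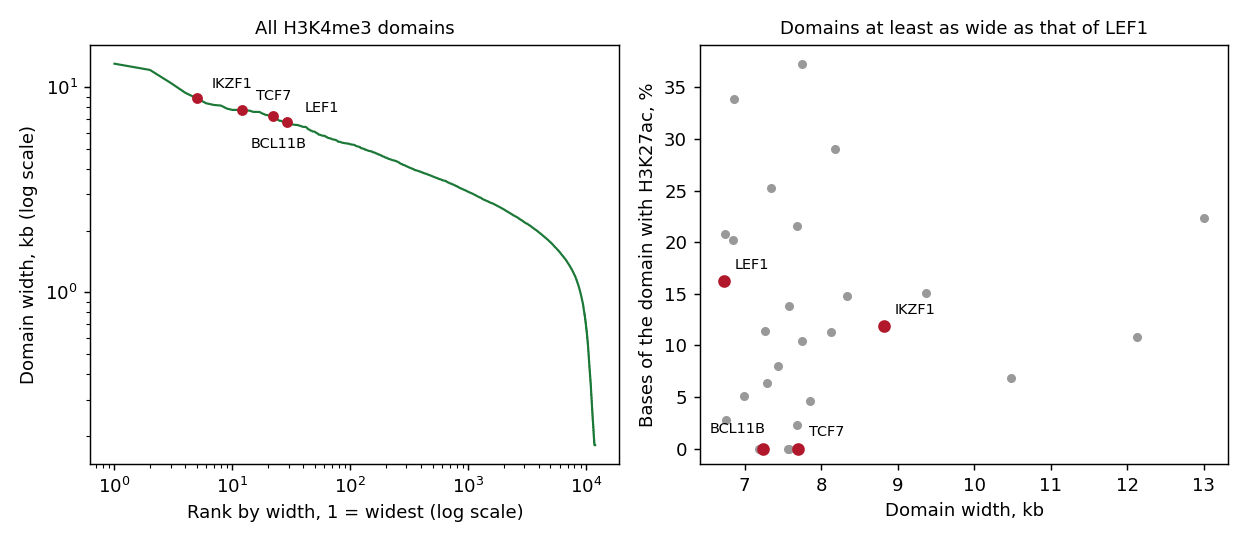
The left panel plots the width in kb of all 11978 H3K4me3 domains against their rank, both on log scales, with the 4 genes in red at ranks 5 to 29. The right panel plots the percentage of bases with H3K27ac against width for the 29 domains at least as wide as that of LEF1; TCF7 and BCL11B lie at 0, IKZF1 at 11.9% and LEF1 at 16.2%.

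Among equally wide domains, those without listed H3K27ac, as at TCF7 and BCL11B, or without listed MYC, as at IKZF1 and TCF7, were less common. The 29 domains of at least 6730 bp, a limit set by LEF1 after the widths were seen, include the 4 genes. H3K27ac was listed in 82.8% of them, and TCF7 and BCL11B were among the 5 without it. Their median share of acetylated bases was 11.3% (quartiles 4.58 and 20.2%). MYC of at least 1 list lay in 89.7% of the 29 and of both lists in 82.8%. IKZF1 and TCF7 were 2 of the 3 domains without MYC. The same 10.3% had no MYC peak within 10 kb either. MYCN was in 6.90%, so its absence from all 4 was the usual state.

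Counted as single regions, the 4 windows held 11 H3K4me3 regions. MYC of at least 1 list overlapped 5 of them (45.5%, interval 16.7 to 76.6%), against 76.7% of all H3K4me3 regions, and MYC of both lists overlapped 4 (36.4%, interval 10.9 to 69.2%), against 43.4%. By gene these were all 3 regions of LEF1 in both lists, 2 of BCL11B in set C of which 1 in set D, and none of the 3 of IKZF1 or the 3 of TCF7. H3K27ac overlapped 5 of the 11, namely 3 at LEF1 and 2 at IKZF1, against 66.2% overall. MYCN overlapped none of the 11 (interval up to 28.5%), against 5.10% overall. With so few regions the intervals are wide, and neighbouring regions of a gene are not independent.

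Enhancer-like regions, meaning H3K4me1 that overlaps H3K27ac and no H3K4me3, were found at LEF1 and IKZF1 and in the downstream span. LEF1 had 11, of which 5 held MYC (45.5%, interval 16.7 to 76.6%), all 5 in set C and 2 of them in set D as well. IKZF1 had 3 and none held MYC. The span had 15, of which 3 held MYC (20%, interval 4.33 to 48.1%), all in set D. Over the whole series 20.4% of 18564 such regions held MYC of at least 1 list, a value inside the intervals of both LEF1 and the span. The lists differed when taken singly. For set C the series value was 8.01%, below the LEF1 interval, and the span had 0 of 15 (interval up to 21.8%). The LEF1 interval treats the regions as independent, which they were not. In LEF1, chr4:108999469-108999930 and chr4:109000418-109000750 lay in the same set C region, chr4:108998936-109000870. Likewise chr4:109015300-109015863 and chr4:109016145-109016320 both lay in chr4:109015163-109017114. For set D the series value was 16.9%, beside 2 of 11 at LEF1 (18.2%, interval 2.28 to 51.8%) and the same 3 of 15 in the span. TCF7 and BCL11B had none in their windows.

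**Figure D3:**
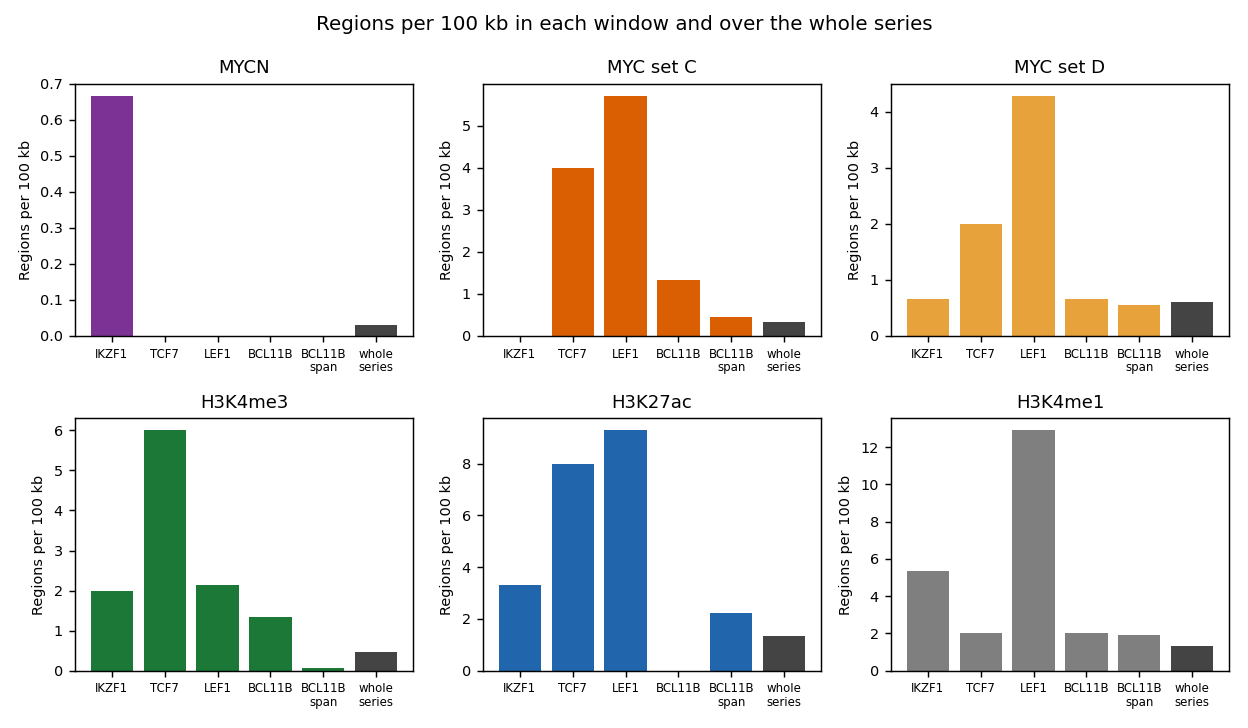
Bars give the number of regions per 100 kb in each gene window, in the span downstream of BCL11B and, in dark grey, over the whole series, with a panel for each list and its own axis from 0. LEF1 is highest for both MYC lists, H3K27ac and H3K4me1, TCF7 for H3K4me3 and IKZF1 for MYCN, and BCL11B has no H3K27ac.

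Per 100 kb, H3K27ac regions numbered 9.29 at LEF1, 8.00 at TCF7, 3.33 at IKZF1 and 0 at BCL11B, with 1.34 over the whole series. H3K4me1 regions numbered 12.9 at LEF1, 5.33 at IKZF1 and 2 at both TCF7 and BCL11B, again with 1.34 overall. MYC of set C stood at 5.71 at LEF1, 4.00 at TCF7, 1.33 at BCL11B and 0 at IKZF1, with 0.322 overall. For set D the values were 4.29, 2, 0.667 and 0.667, with 0.611 overall. The order was another one for H3K4me3, with 6 regions per 100 kb at TCF7, 2.14 at LEF1, 2 at IKZF1 and 1.33 at BCL11B, and 0.470 overall. The only MYCN peak gave 0.667 at IKZF1, with 0.0303 overall. The windows are drawn around genes and the series value covers whole chromosomes, and windows of other genes were not compared.

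Downstream of BCL11B, H3K27ac regions and MYC sites were most numerous in the same 100 kb step, at a distance of about 1 Mb, though not all of them overlapped. The RefSeq order shows no other protein-coding gene between BCL11B and VRK1 on that side, only 27 noncoding or pseudogene entries. The span held 40 H3K27ac regions (2.22 per 100 kb), 34 H3K4me1 regions (1.89), 8 MYC regions of set C (0.444), 10 MYC peaks of set D (0.556), 1 H3K4me3 region and no MYCN peak. In steps of 100 kb, the step chr14:98600000-98700000 held 11 of the H3K27ac regions and 6 MYC sites of each list. No other step held more than 3 H3K27ac regions or more than 1 MYC site of either list. This step lies 1033 to 1133 kb from the BCL11B domain. H3K4me1 followed another course, with only 2 regions in that step and 4 in each of the 3 steps between 233 and 533 kb from the domain, where neither MYC list had a site.

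**Figure D4:**
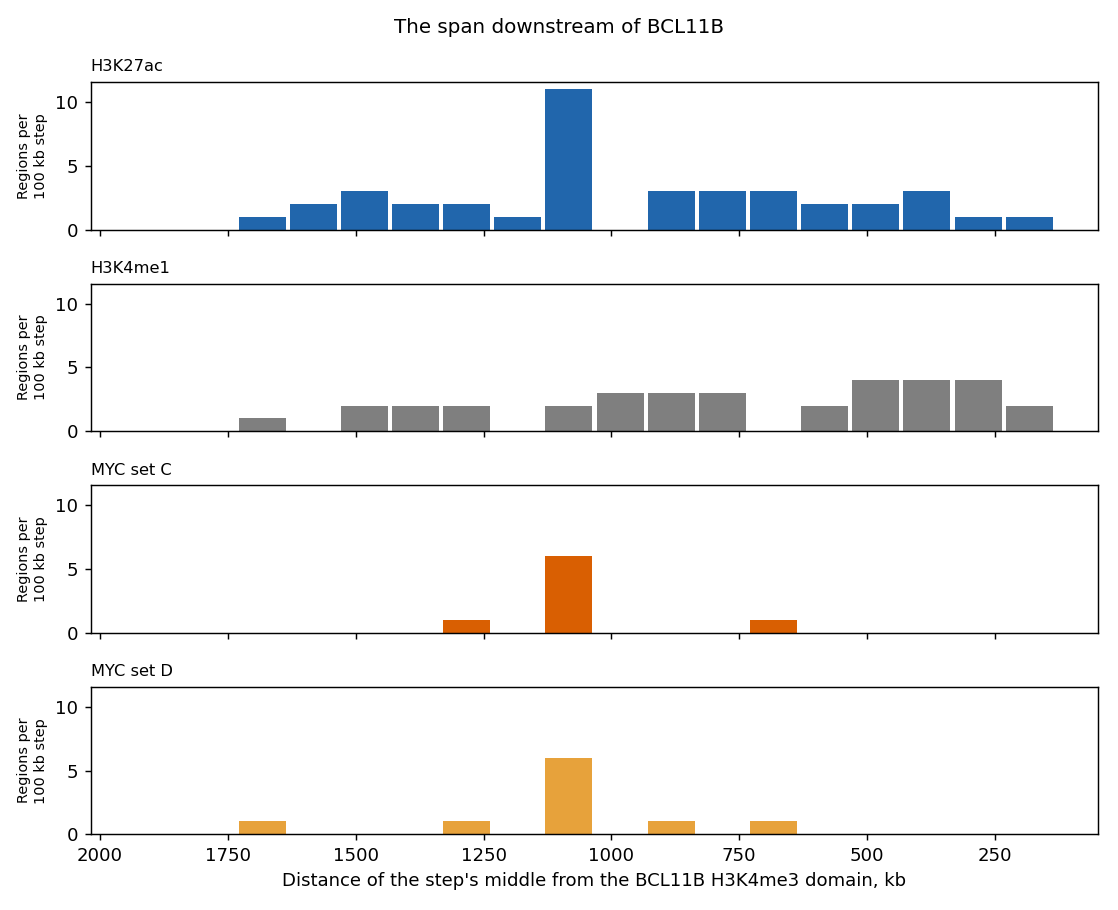
Bars count the regions of 4 lists in each 100 kb step of the span, against the distance in kb of the step's middle from the BCL11B H3K4me3 domain, with the same vertical axis in all panels. H3K27ac and both MYC lists peak in the same step, with 11, 6 and 6 regions, where H3K4me1 has 2.

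That step held the longest H3K27ac cluster of the span, chr14:98649072-98676909 (27838 bp, rank 286 of 28279), with gaps of up to 10 kb joined. With gaps of up to 5 kb the longest of the span was 5990 bp (rank 799 of 34944) and lay outside that step, at chr14:99009221-99015210, and with gaps of up to 20 kb it was 94191 bp. The cluster of 27838 bp was made of 6 H3K27ac regions that covered only 2590 bp, with 2 MYC regions of set C and 3 peaks of set D. The next longest clusters were chr14:98243297-98252322 (9026 bp, without MYC) and chr14:98874495-98883320 (8826 bp, with a MYC peak of set D). The widest MYC regions of set C were chr14:98639312-98641583 (2272 bp), chr14:98664103-98665981 (1879 bp) and chr14:98655110-98656658 (1549 bp), all 3 in that step and all listed by set D too. The first of these overlapped none of the 3 marks. Nor did chr14:98604673-98605633 and chr14:98638006-98639021, also set C regions of that step. In set D the widest were chr14:98633800-98634727 (928 bp) and chr14:98676638-98677135 (498 bp) in the same step, and chr14:99014682-99015113 (432 bp), 718 kb from the domain.

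MYC in the span overlapped H3K27ac most often, as it did over the whole lists, and no MYC site of the span overlapped H3K4me3. Of the 8 set C regions, 6 were also in set D (75%, interval 34.9 to 96.8%), against 82.5% of the whole list. Of the 8, 5 overlapped H3K27ac and none overlapped H3K4me1 or H3K4me3 (interval up to 36.9%), against 78.2%, 26.6% and 65.9% of the whole list. The other 3 overlapped none of the 3 marks (37.5%, interval 8.52 to 75.5%), against 8.10% of the whole list. Of the 10 set D peaks, 6 were in set C (60%, interval 26.2 to 87.8%), against 45.1% of the whole list. Of the 10, 9 overlapped H3K27ac, 3 overlapped H3K4me1 and none overlapped H3K4me3 (interval up to 30.8%), against 70.7%, 28.2% and 56.0% of the whole list. The remaining 1 overlapped none of the 3 marks, against 10.5% of the whole list. Read from the other side, 10 of the 40 H3K27ac regions held MYC (25%, interval 12.7 to 41.2%), against the 34.6% of the whole list.

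The widest histone regions of the span lay elsewhere. Its only H3K4me3 region, chr14:98442675-98444670 (1996 bp), overlapped the widest H3K27ac region, chr14:98443362-98445516 (2155 bp), and no MYC. Next among H3K27ac were chr14:98459605-98461342 (1738 bp), which held MYC of both sets and lay 1271 kb from the domain, and chr14:99223547-99224994 (1448 bp), which held none. The widest H3K4me1 regions were chr14:98243296-98244270 (975 bp), chr14:98344739-98345577 (839 bp) and chr14:99398081-99398837 (757 bp).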

How the data were processed

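The deposited files are peak lists on hg19, per the submitters' processing notes, which name MACS2 and SEACR without versions. Each file has 4 columns (chromosome, start, end and a name) and no score, so the values used here are the positions deposited by the authors, in bases. Per the file headers, the MYCN list holds cutruntools peaks at a q-value below 0.01, the H3K4me3 list MACS2 peaks, the MYC list of set C SEACR stringent peaks on paired reads, and that of set D MACS2 peaks on unpaired reads. The labels name the set D MYC library as its own control. Not given in the sources used here are the aligner and the caller of the H3K27ac and H3K4me1 lists. Different callers give different widths, so widths were ranked only within a list. No list is described as pooled, and IgG libraries were not analysed here.

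Regions on chromosomes 1 to 22 and X were kept, which left out at most 53 per list. Regions overlap when they share at least 1 bp. H3K4me3 regions were joined within 1 kb and H3K27ac regions within 10 kb. Densities use the length from the first to the last region of each chromosome. Promoter windows and gene neighbours came from RefSeq tables on GRCh38.p14, from which no position was carried to hg19. No hg19 annotation was used, so exons and introns are not stated. Of each window the widest H3K4me3 domain, the longest H3K27ac cluster, every MYCN peak and every MYC peak in H3K4me3 are named, and the 3 widest regions of lists with more than 5. The genes, windows and lists were chosen with earlier results of these data known. On simulated data the overlap counting recovered 400 of 400 planted overlaps, and on the real lists it gave the counts of bedtools 2.31.1 for all 30 ordered pairs of lists. The simulated regions without an overlap were picked by the same code, so that check could show missed overlaps but no false ones. Intervals came from scipy 1.17.1, medians from numpy 2.4.6 and plots from matplotlib 3.10.9, under Python 3.11.15.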

Additional observations from a re-analysis of the deposited data

How the results depend on the processing

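The lists hold no reads, so depth could limit any absence reported here by an unknown amount. With windows widened by 50 kb on each side the 4 gene windows held 141 regions in place of 85, and with only regions at or above the median width of their list they held 40, and the downstream span 39 in place of 93. Of the 11 H3K4me3 regions, 3 in place of 5 held MYC when only the wider MYC peaks counted, because both BCL11B regions lost theirs, and without the set C list 1 of the 2 BCL11B regions kept it. Enhancer-like regions with MYC, 8 in all, were 5 when centres were counted, and 5 without either the set C or the set D list. In the span they were 0 by centres and 0 without set D. IKZF1 and TCF7 had no MYC in H3K4me3 under any of these settings. The H3K4me3 domain of IKZF1 was 3585 bp without joining, rank 390 of 13852, whereas the other 3 then ranked 10 to 15. With gaps of up to 3 kb joined, the ranks were 22 at IKZF1, 46 at TCF7, 7 at LEF1 and 67 at BCL11B of 11517 domains. The longest H3K27ac cluster, 27838 bp in the span, gave way at 5 kb to that of TCF7 (13949 bp, rank 23 of 34944), when the longest of the span was 5990 bp at another place, and at 20 kb it was 94191 bp. The rank of the TCF7 cluster hung on the joining distance. At the same length it ranked 1429 of 28279 at 10 kb and 4939 of 20282 at 20 kb. All 4 genes had a CANNTG in a promoter window, against 1 with CACGTG. Of 17 alternatives run for the main answers, 7 stayed within 1.5 times the value reported. Of the 82 other alternatives run for single windows and lists, 54 did. The 54 include values of 0 that stayed 0, also where a window had no region to test. They also include counts of regions that share 1 bp with a window, which changed nothing because no region crossed an edge.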
